A study of Mus musculus with 8 samples.

Results

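The subunits of the transcription factor GABP were followed probe by probe in mouse macrophages treated with siRNA against GABP. All probes that the array annotation pairs with Gabpa, Gabpb1 or Gabpb2 were taken, 3 of the 15946 genes on the array, which gave 7 of its 23978 probes. Gabpa had 3 probes, and Gabpb1 and Gabpb2 had 2 each. The 8 Illumina arrays held RNA of C57BL/6 peritoneal macrophages elicited with thioglycollate, an irritant that recruits these cells into the peritoneum. Every group had been given an siRNA, which was scrambled (siCtrl), directed against the histone methyltransferase MLL (siMLL) or directed against GABP (siGABP). Cells of each kind either stayed untreated or were exposed for 6 h to KLA (Kdo2 lipid A), which activates Toll-like receptor 4. Of the 6 groups, siMLL untreated held 3 arrays, and siCtrl untreated, siCtrl KLA, siMLL KLA, siGABP untreated and siGABP KLA held 1 each. The age of the mice, the number pooled per array and the GABP subunit that the siRNA targets are not given in the sources used here. Nothing says that the 3 siMLL untreated arrays came from separate cultures or animals, so their spread may be technical. Most p-values rest on this spread and on how far siRNA and KLA effects fail to add up across the single arrays. Those of differences of differences rest on the siMLL untreated spread alone. In both, the spread of each probe was drawn toward that of all probes, which carried more weight than its own. None measures a spread between animals that is known to be such.

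GABP is an ETS-family factor made of unlike subunits. Gabpa encodes the alpha subunit, whose ETS domain binds DNA at sites built around the core GGAA. Gabpb1 and Gabpb2 encode alternative beta subunits, which bind the alpha subunit through ankyrin repeats and carry the activation domain that it lacks. The complex is best known as an activator of genes for mitochondrial respiration and translation, which gave it the name nuclear respiratory factor, and of leukocyte genes such as that for a beta integrin.

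The promoters of the subunit genes are shown because the levels of Gabpa and Gabpb1 moved in opposite directions with siGABP. They are also shown because a promoter window of each gene holds CCGGAA or AGGAAG, so the choice followed the matches. Both motifs contain the core GGAA. Another Gabpb1 window holds neither motif, though it holds GGAA with other flanks. Whether the matches bear on the levels was not tested. RefSeq windows (build GRCm38.p6), each reaching from 250 bases before to 50 after an annotated start, were found for all 3 genes. The letters CCGGAA and AGGAAG were searched on both strands, and these motifs cannot share a GGAA core. Capitals mark every match to these motifs, with TTCCGG standing for CCGGAA on the other strand. GGAA with other flanks also occurs in the windows on either strand and is left unmarked. Gabpa lies on the plus strand at chr16:84834891-84863783, Gabpb1 on the minus strand at chr2:126628907-126684435 and Gabpb2 on the minus strand at chr3:95181766-95218110. The windows printed are chr16:84834874-84835173 for Gabpa, chr2:126675543-126675842 for Gabpb1 and chr3:95217893-95218192 for Gabpb2, each written 5′ to 3′ along its gene.
Gabpa: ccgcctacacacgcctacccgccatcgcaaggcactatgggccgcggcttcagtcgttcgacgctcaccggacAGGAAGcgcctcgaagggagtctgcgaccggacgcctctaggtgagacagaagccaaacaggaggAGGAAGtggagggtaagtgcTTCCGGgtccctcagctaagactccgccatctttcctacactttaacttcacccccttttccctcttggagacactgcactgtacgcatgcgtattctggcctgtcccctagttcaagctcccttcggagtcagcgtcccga
Gabpb1: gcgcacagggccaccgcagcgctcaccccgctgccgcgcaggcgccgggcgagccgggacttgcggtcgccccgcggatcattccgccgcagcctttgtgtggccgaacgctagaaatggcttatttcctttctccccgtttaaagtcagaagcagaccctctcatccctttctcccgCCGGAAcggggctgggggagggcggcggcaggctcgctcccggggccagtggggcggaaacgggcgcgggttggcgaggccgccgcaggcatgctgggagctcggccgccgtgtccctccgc
Gabpb2: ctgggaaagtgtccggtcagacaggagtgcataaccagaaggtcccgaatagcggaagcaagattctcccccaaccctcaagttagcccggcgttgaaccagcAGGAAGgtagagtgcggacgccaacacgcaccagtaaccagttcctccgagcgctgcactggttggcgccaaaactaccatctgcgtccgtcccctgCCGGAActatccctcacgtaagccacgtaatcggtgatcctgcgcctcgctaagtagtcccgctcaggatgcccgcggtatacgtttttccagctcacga

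The Gabpa window held 3 matches, AGGAAG beginning 177 and 112 bases before the start site and CCGGAA on the opposite strand 92 bases before it. The Gabpb1 window held CCGGAA 72 bases before its start site. A further Gabpb1 window, whose start site lies 240 bases downstream, held neither motif. The Gabpb2 window held AGGAAG 147 and CCGGAA 50 bases before its start site. All these start sites lie inside the annotated gene spans, at 84835124 for Gabpa, 126675592 and 126675352 for Gabpb1 and 95217942 for Gabpb2. The marked matches also lie inside these spans. The outer end of Gabpb1 at 126684435 has no window here. Among all 32851 windows of this length, CCGGAA was found in 14.9% and AGGAAG in 35.4%, 45.2% held at least 1 match of either, and 4.27% held at least 3. These matches are descriptions of letters, and no binding was measured on these arrays.

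**Figure D1:**
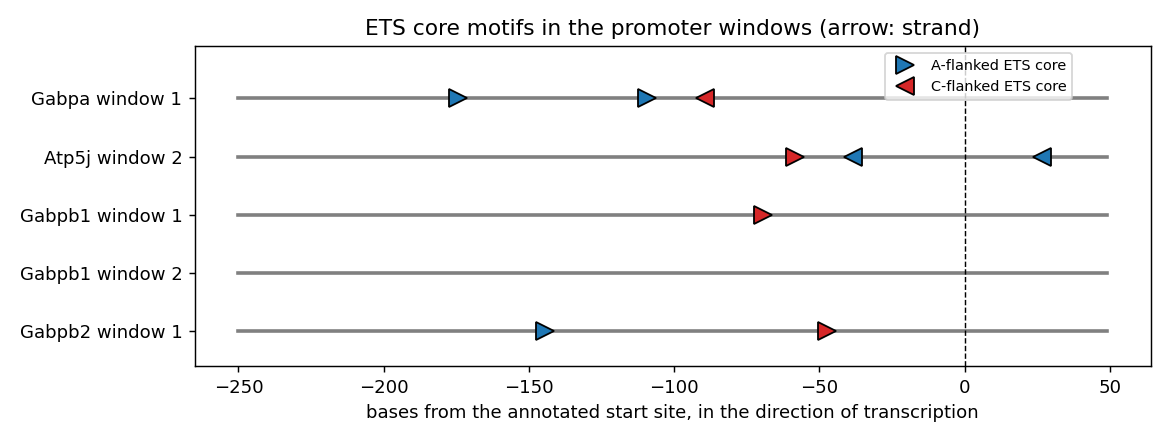
Positions of the CCGGAA and AGGAAG matches in the RefSeq promoter windows of Gabpa, its neighbour Atp5j, Gabpb1 and Gabpb2. GGAA cores with other flanks are not drawn. The horizontal axis gives bases from the annotated start site in the direction of transcription, red arrows mark CCGGAA (C-flanked core), blue arrows AGGAAG (A-flanked core), and the arrow direction gives the strand. The Gabpa window and Atp5j window 2 share 247 bases and show the same 3 matches from opposite strands, and Gabpb1 window 2 holds neither motif.

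Intensities are the deposited linear values, of which the median over all probes was 139.5. All arrays had the same distribution of values, so every level is relative to the other probes on its array. Differences were computed on log2 values after background correction and are given with their standard error (SE) and, where stated, the 95% confidence interval. Probes with a limma p-value adjusted over all 23978 probes (Benjamini-Hochberg) under 0.05 were called. No detection values could be assigned to the arrays, so whether a dim probe exceeded background is unknown, and folds of dim probes are understated.

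Gabpa, the DNA-binding subunit, was lower in both siGABP arrays on its probe 2360017. This probe read 202.3 in siCtrl untreated cells, 185.7, 180.1 and 187.5 in the siMLL untreated replicates (184.4 ± 3.86, SD, n = 3) and 127.4 in siGABP untreated cells. After KLA it read 318.4 in siCtrl, 274.9 in siMLL and 157.4 in siGABP cells. Both siGABP arrays thus lay below all 6 other arrays, and the KLA-treated siGABP array lay below the untreated controls. Averaged over the KLA states (2 siGABP against 2 siCtrl arrays), the siGABP effect on this probe was a 2.03-fold fall, by 1.02 ± 0.10 SE on the log2 scale (interval -1.23 to -0.81, limma adjusted p = 0.000197). It was the 8th lowest of the 23978 effects. In deposited intensities, the siCtrl array read 1.59 times the siGABP array in untreated cells and 2.02 times it after KLA.

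The other Gabpa probes showed less of this fall. Probe 4850279 read 167.2 in siCtrl, 164.3, 169.8 and 154.5 in siMLL (162.9 ± 7.78, SD, n = 3) and 140.3 in siGABP untreated cells, and 169.2, 178.8 and 133.5 in siCtrl, siMLL and siGABP cells after KLA. Both siGABP arrays were again the lowest, but the siGABP effect of -0.38 ± 0.10 SE (interval -0.59 to -0.17) missed the threshold at a limma adjusted p = 0.0544. Probe 4780301 read 138.8 in siCtrl, 147.3, 143 and 137.8 in siMLL (142.7 ± 4.78, SD, n = 3) and 128 in siGABP untreated cells, and 136.7, 162.2 and 141.4 after KLA. Its siGABP arrays overlapped the others, and its siGABP effect was -0.05 ± 0.10 SE (interval -0.25 to 0.16, limma adjusted p = 0.892). Without the siCtrl untreated array the sign of this small difference turned to 0.08.

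The Gabpa probes were set against each other with limma on the difference of their log2 values, run over all 6893 pairs of probes of one gene (3691 genes). For the siGABP effect, 52 pairs (0.754%) were called. The fall of 2360017 exceeded that of 4850279 by 0.64 ± 0.14 SE on the log2 scale (adjusted p = 0.029) and that of 4780301 by 0.98 ± 0.14 SE (adjusted p = 0.00568). The other 2 probes differed by 0.34 ± 0.13 SE (adjusted p = 0.267). Both calls were lost without the siCtrl KLA array (-0.52 and -0.76), without the siGABP KLA array (-0.59 and -0.79) and with a smaller background offset (-0.78 and -1.25). The first was also lost without siMLL KLA (-0.64) and without siGABP untreated (-0.69). All 3 probes list the same RefSeq transcript, their positions in it are not known here, and whether the difference lies in transcripts or in the dimness of 4850279 and 4780301 was not tested.

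Gabpb1, a beta subunit, was higher with siGABP on both of its probes. Probe 730021 read 226.3 in siCtrl untreated cells, 230.7, 225.5 and 231.5 in the siMLL untreated replicates (229.2 ± 3.24, SD, n = 3) and 414.3 in siGABP untreated cells. After KLA it read 513.9 in siCtrl, 573.4 in siMLL and 967.7 in siGABP cells, the last above every other array. The siGABP effect was a 1.96-fold rise, 0.97 ± 0.09 SE on the log2 scale (interval 0.78 to 1.16, limma adjusted p = 0.000152), the 9th highest of all probes. The rise was of like size in untreated cells (0.98) and after KLA (0.96).

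Probe 6900037 of Gabpb1 moved the same way. It read 123.7 in siCtrl, 134.9, 146.1 and 114.4 in siMLL (131.8 ± 16.1, SD, n = 3) and 167 in siGABP untreated cells, and 170.7, 219.3 and 326 in siCtrl, siMLL and siGABP cells after KLA. In each KLA state the siGABP array was the highest. Its siGABP effect was 0.83 ± 0.14 SE (1.77-fold, interval 0.52 to 1.13, limma adjusted p = 0.00658), with 0.56 in untreated cells and 1.09 after KLA. The call was lost without the siCtrl KLA array (0.62), without the siGABP KLA array (0.66) and with a smaller background offset (1.07). The siGABP effects of the Gabpb1 probes differed by 0.14 ± 0.17 SE (interval -0.20 to 0.49, limma adjusted p = 0.785), and over the 8 arrays their log2 values correlated at r = 0.945. This correlation is a description over arrays that share the siRNA and KLA groups.

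Gabpb2, the other beta subunit gene, differed little between the groups. Probe 7050735 read 113.3 to 128.1 and probe 6130450 read 104.4 to 126.9 over the 8 arrays, below the median of all probes on every array. The siGABP effect was 0.16 ± 0.10 SE (interval -0.05 to 0.36, limma adjusted p = 0.483) on the first and -0.18 ± 0.10 SE (interval -0.40 to 0.05, limma adjusted p = 0.463) on the second. At these levels the probes may hold little more than background, so the intervals bound only the shrunken differences, and with the smaller background offset the differences were 0.26 ± 0.14 SE and -0.31 ± 0.16 SE. Their log2 values did not vary together over the 8 arrays (r = -0.012).

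**Figure D2:**
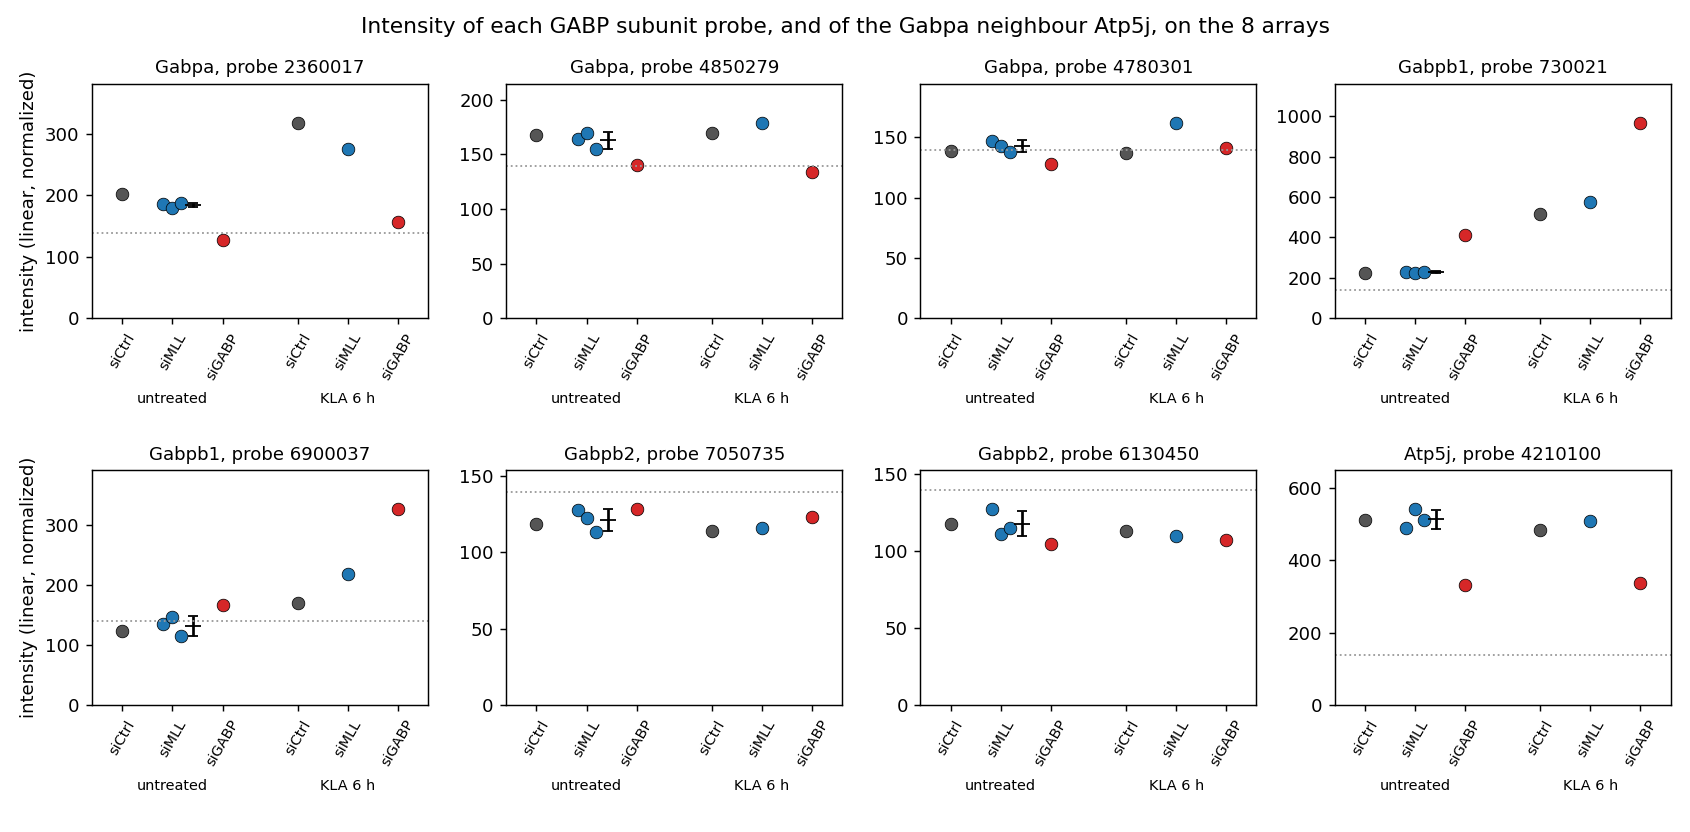
Deposited linear intensity (vertical axes, from 0) of the 7 GABP subunit probes and of a probe of the neighbouring gene Atp5j on the 8 arrays, by siRNA and KLA state. Each point is 1 array, the black bar gives the mean and SD of the 3 siMLL untreated arrays, and the dotted line is the median of all probes. Gabpa 2360017 is lowest and Gabpb1 730021 highest in the siGABP array of each KLA state.

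For the siGABP effect as a whole, 3 of the 7 probes were called, 2 higher (both Gabpb1) and 1 lower (Gabpa 2360017), and 4 had an unadjusted p under the same threshold. Among all probes 697 (2.91%) were called, 1.68% higher and 1.23% lower. Of these calls 57.8% were higher, and 46.6% when arrays were scaled to reference genes, which left the directions of all 7 probes as they were. The 10 reference genes, among them Gapdh and Rplp0, were not tested for stability. Rplp0 differed by -0.28 with siGABP and 0.14 with KLA, and a Gapdh probe by 0.42 and -0.33, so this scaling is not a neutral check.

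**Figure D3:**
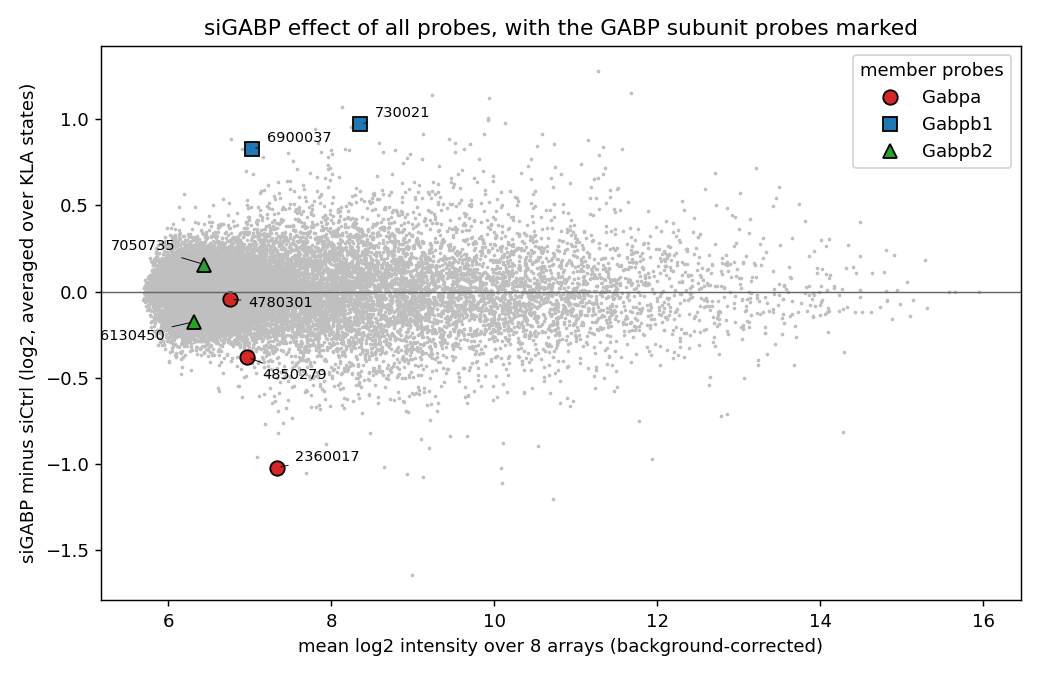
The siGABP effect (vertical axis, log2, siGABP minus siCtrl averaged over the KLA states) against mean log2 intensity over the 8 arrays (horizontal axis) for all 23978 probes in grey, with the GABP subunit probes marked. Gabpa 2360017 (-1.02) and the Gabpb1 probes (0.97 and 0.83) lie at the edges of the cloud, and the Gabpb2 probes lie within it.

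The siMLL arrays showed how far the subunit probes moved with an siRNA that is not directed at GABP. None of the 7 was called with limma, 1 had an unadjusted p under 0.05, and 373 of all probes (1.56%) were called, 1.04% higher and 0.517% lower. That probe was Gabpa 2360017, with a siMLL effect of -0.21 ± 0.09 SE (interval -0.40 to -0.03, limma adjusted p = 0.333). Gabpb1 differed by 0.07 ± 0.08 SE on 730021 and by 0.26 ± 0.13 SE on 6900037 (limma adjusted p = 0.799 and 0.442). The remaining probes differed by -0.01 to 0.16. Of the 373 calls 66.8% were higher, and 39.7% with reference gene scaling.

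Set directly against siMLL, siGABP gave the same directions. The siCtrl arrays enter this estimate only through the KLA term of the fit, because siMLL holds 3 untreated arrays and 1 KLA array. They also add to the spread behind its SE and p-value. Of the 7 probes 4 were called, 2 higher and 2 lower, against 396 of all probes (1.65%), of which 58.6% were higher and 72.5% with reference gene scaling. Gabpa 2360017 was lower by -0.81 ± 0.09 SE (limma adjusted p = 0.000625), the 4th lowest of all probes, and 4850279 by -0.38 ± 0.09 SE (limma adjusted p = 0.0458). Gabpb1 730021 was higher by 0.90 ± 0.08 SE (limma adjusted p = 0.000148) and 6900037 by 0.56 ± 0.13 SE (limma adjusted p = 0.0419). The siGABP effect and this contrast share the siGABP arrays, so they are not separate evidence.

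Of these calls, those of 2360017 and 730021 held whichever array was left out. The call of 4850279 was lost without siMLL untreated replicate 1 (-0.38) or 2 (-0.36), siCtrl untreated or siCtrl KLA (-0.38 each), siMLL KLA (-0.30), siGABP untreated (-0.49) or siGABP KLA (-0.29). The call of 6900037 was lost without siMLL untreated replicate 1 (0.58) or 3 (0.48), siMLL KLA (0.58), siGABP untreated (0.75) or siGABP KLA (0.42).

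KLA raised Gabpb1 on both probes and Gabpa on 1 of 3. Averaged over the siRNAs (3 KLA against 5 untreated arrays), Gabpb1 rose 2.59-fold on 730021 (1.37 ± 0.07 SE, limma adjusted p = 5.38e-10) and 1.86-fold on 6900037 (0.89 ± 0.11 SE, limma adjusted p = 1.24e-05). Gabpa rose 1.54-fold on 2360017 (0.62 ± 0.07 SE, limma adjusted p = 1.15e-05). Its other probes differed by 0.05 ± 0.07 SE (4850279, limma adjusted p = 0.716) and 0.15 ± 0.07 SE (4780301, limma adjusted p = 0.175), and the Gabpb2 probes by -0.08 and -0.07. The small difference of 4850279 turned to -0.04 without the siMLL KLA array.

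In all, 3 of the 7 probes were called for KLA, all higher, against 26.2% of all probes (9.79% higher and 16.4% lower), so a call for KLA was common on these arrays. Scaling to reference genes moved the median difference of all probes from -0.005 to 0.121 and the share of calls that were higher from 37.4% to 70.2%. Under it 4780301 was called (0.27), and the Gabpb2 differences turned to 0.04 and 0.06, below the shifted median.

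The probes of one gene again differed in their KLA response. For KLA 18.8% of the probe pairs were called. The response of Gabpa 2360017 exceeded that of 4850279 by 0.57 ± 0.10 SE (limma adjusted p = 0.000391) and that of 4780301 by 0.47 ± 0.11 SE (limma adjusted p = 0.00376). That of Gabpb1 730021 exceeded that of 6900037 by 0.48 ± 0.12 SE (limma adjusted p = 0.0091). The Gabpa call against 4780301 was lost without siCtrl untreated or siCtrl KLA (0.35 each). The Gabpb1 call was lost without siCtrl untreated or siCtrl KLA (0.39 each), without siMLL KLA (0.44) and with the smaller offset (0.34).

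**Figure D4:**
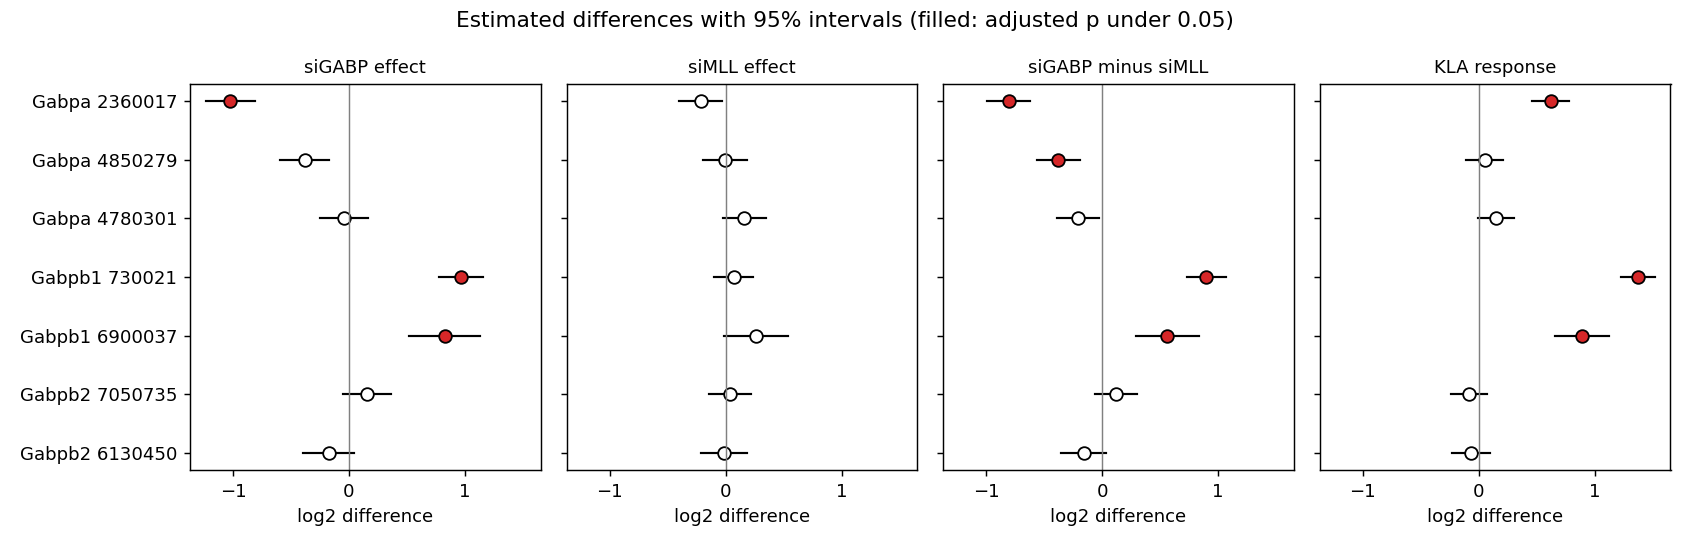
Estimated log2 differences (horizontal axes, 1 scale for all panels) of the 7 probes with 95% confidence intervals, for siGABP against siCtrl, siMLL against siCtrl, siGABP against siMLL, and KLA against untreated. Filled points were called (adjusted p under 0.05). Gabpa 2360017 is filled on the negative side for siGABP and on the positive side for KLA, and both Gabpb1 probes are filled on the positive side for siGABP and KLA.

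Within each siRNA background, KLA moved Gabpb1 730021 by 1.32 in siCtrl, 1.46 in siMLL and 1.29 in siGABP cells. Gabpb1 6900037 moved by 0.60, 0.93 and 1.13, and Gabpa 2360017 by 0.75, 0.68 and 0.40 in the same order. The KLA differences of Gabpa 2360017 were thus smallest, and those of Gabpb1 6900037 largest, in siGABP cells, but each rests on 1 KLA array.

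As a difference of differences, siGABP changed the KLA response of Gabpa 2360017 by -0.36 ± 0.17 SE (interval -0.73 to 0.02, limma adjusted p = 0.802), of Gabpb1 6900037 by 0.53 ± 0.28 SE (interval -0.10 to 1.15, limma adjusted p = 0.813) and of Gabpb1 730021 by -0.02 ± 0.17 SE (interval -0.40 to 0.35, limma adjusted p = 0.986). None of the 7 probes was called with limma and none had an unadjusted p under 0.05. Of all probes 1 (0.00417%) was called and 1499 had an unadjusted p under 0.05. The siMLL effect on the KLA response lay between -0.08 and 0.33 for the 7 probes, with 0 of them and 0 of all probes (0%) called by limma and 1459 of all probes at an unadjusted p under 0.05. The spread in these tests came from the siMLL untreated triplicate alone, with that of each probe drawn toward that of all probes. The single arrays were assumed to vary to the same extent. On simulated data these tests called none of the planted changes of 0.5 or 1 on the log2 scale. The lack of calls therefore does not show that siGABP or siMLL left the KLA responses unchanged.

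**Figure D5:**
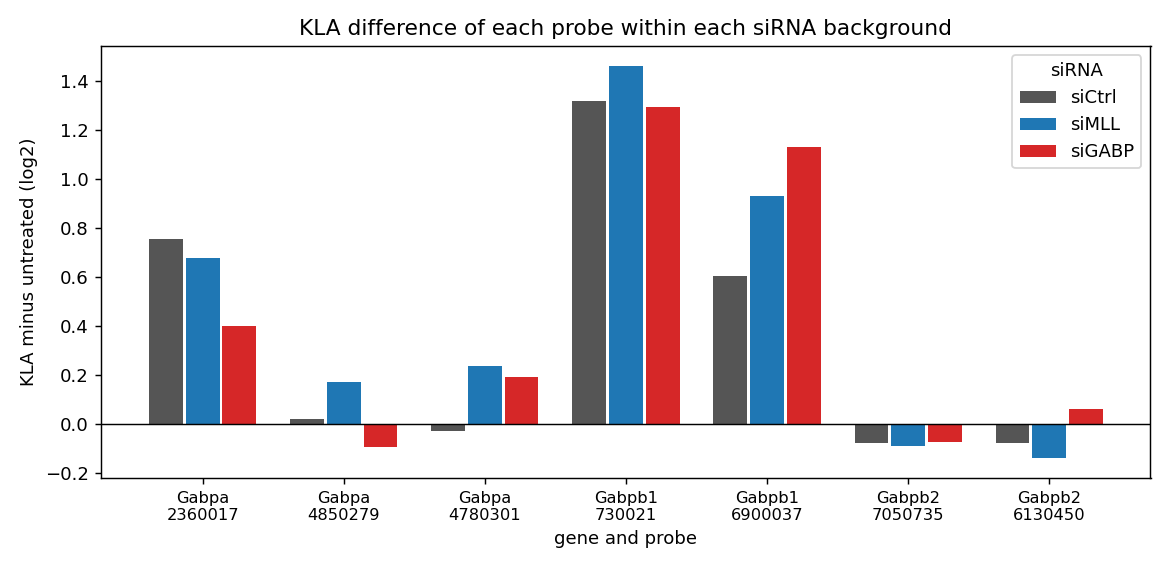
KLA minus untreated (vertical axis, log2) for each probe within siCtrl, siMLL and siGABP cells. Each bar compares 1 KLA array with 1 untreated array, or with the mean of 3 for siMLL, and has no error of its own. Gabpb1 730021 ranges from 1.29 to 1.46, and Gabpa 2360017 from 0.40 to 0.75.

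The opposite moves of Gabpb1 730021 and Gabpa 2360017 under siGABP were described as the difference between these probes on each array. Because different probes bind with different strength, only the change of this difference between arrays can be read. On the log2 scale it was 0.19 in siCtrl and 0.37, 0.39 and 0.36 in siMLL untreated cells, and 2.02 in siGABP untreated cells. After KLA it was 0.75 in siCtrl, 1.16 in siMLL and 2.91 in siGABP cells. Both siGABP arrays lay above all 6 others, and within every siRNA the KLA array lay above the untreated ones. This order follows from the values of these probes given above and is no separate evidence. The other Gabpa probes fell less with siGABP.

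Other genes followed the patterns of the subunits over the 8 arrays. Among 8791 genes with a probe brighter than the median, the log2 values most like Gabpa 2360017 were those of Pyroxd1 (an oxidoreductase, r = 0.985), Rrp15 (which serves ribosomal RNA processing, r = 0.978), Ptgis (prostacyclin synthase, r = 0.969), Ptges3 (a co-chaperone, r = 0.967) and Rplp0 (a ribosomal stalk protein, r = 0.964). These moved less than Gabpa, with siGABP effects from -0.46 to -0.15 and KLA responses from 0.12 to 0.26. Most like Gabpb1 730021 were Insl6 (an insulin-like peptide, r = 0.985), H2-Q6 (of the MHC class I family, r = 0.984), Sf3b3 (a spliceosome subunit, r = 0.982), Sec23b (of the COPII vesicle coat, r = 0.981) and Irf7 (a transcription factor of the interferon response, r = 0.981). Their siGABP effects lay between 0.20 and 0.70 and their KLA responses between 0.35 and 1.47. A correlation above 0.9 was found for 44 genes with Gabpa and for 328 with Gabpb1, over arrays that share siRNA and KLA groups.

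Atp5j (now Atp5pf), which encodes a subunit of mitochondrial ATP synthase, is the neighbour of Gabpa on the opposite strand. In RefSeq a start site of Atp5j lies 148 bases from that of Gabpa, their promoter windows share 247 bases, and the annotated genes overlap by 967 bases. The Gabpa window printed above therefore holds most of an Atp5j promoter window. Atp5j probe 4210100 read 512.9 in siCtrl, 488.4, 540.7 and 511.8 in siMLL (513.6 ± 26.2, SD, n = 3) and 333 in siGABP untreated cells, and 485.3, 507.6 and 337.6 in siCtrl, siMLL and siGABP cells after KLA. Both siGABP arrays lay below all 6 others, with no difference of this size between KLA states.

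The siGABP effect on this probe was a 1.54-fold fall (-0.62 ± 0.09 SE, limma adjusted p = 0.00205), the 58th lowest of all probes, against a siMLL effect of 0.03 ± 0.08 SE (limma adjusted p = 0.925). The KLA response was -0.03 ± 0.07 SE (limma adjusted p = 0.858), where Gabpa 2360017 rose. The other Atp5j probe, 6900288, read 100.3 to 121.9 over the 8 arrays, below the median, with a siGABP effect of 0.22 ± 0.11 SE (limma adjusted p = 0.361). The genes overlap, and whether any of these probes lies in the shared stretch is not known here.

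Partners and coregulators of GABP and textbook GABP targets were taken as lists. Of 13 partners 10 were on the array, and none was called for siGABP with limma (2 at an unadjusted p under 0.05, median -0.08 against -0.002 for all probes). With 2.91% of all probes called, a count of 0 among so few genes says little about them. Of the partners on the array 9 lay above the median, whereas that share covers dim probes too and is not matched for brightness. Those with the smallest p were the cell cycle factor E2f1 (0.40 ± 0.10 SE, limma adjusted p = 0.0542), the acetyltransferase Crebbp (-0.38 ± 0.13 SE, limma adjusted p = 0.168), the coactivator Ppargc1b (-0.17 ± 0.11 SE) and Nrf1 (-0.13 ± 0.09 SE), another regulator of respiratory genes.

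Of 19 targets 18 were on the array, 13 of them above the median. None was called for siGABP with limma (2 at an unadjusted p under 0.05, median -0.02), beside 2.91% of all probes, a share again not matched for brightness. The smallest p values were those of Skp2, of a ubiquitin ligase of the cell cycle (-0.23 ± 0.10 SE, limma adjusted p = 0.283), the interleukin receptor gene Il7r (0.22 ± 0.10 SE), the muscle cytoskeleton gene Utrn (0.16 ± 0.09 SE) and Cox5b, of cytochrome oxidase (0.16 ± 0.08 SE). KLA raised 3 and lowered 3 of the 10 partners, and raised 3 and lowered 7 of the 18 targets, beside 9.79% of all probes higher and 16.4% lower. Those shares cover dim probes too, and whether the lists differ from genes of like brightness was not tested. Among the listed genes, Creb1 rose by 0.49 ± 0.08 SE (limma adjusted p = 0.000205) and Tfam, which maintains mitochondrial DNA, by 0.68 ± 0.08 SE (limma adjusted p = 6.1e-06). Il7r fell by 0.94 ± 0.08 SE (limma adjusted p = 1.57e-07). Creb1 and Tfam were chosen for naming after their values were seen.

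The labelled cell type was checked against markers. Of 10 macrophage markers 8 were on the array and 7 lay above the median, and none was called for siGABP. Adgre1 read 2330 to 3664 and Lyz2 23069 to 35652, whereas Fcgr1 (190.8 to 260.5) and Itgam (151.8 to 187.8) were dim. Msr1 (108.5 to 122.3) lay below the median. The macrophage markers summed to 34127 to 39768 on the siCtrl, 36423 to 42114 on the siMLL and 39316 to 43172 on the siGABP arrays. Most of this sum came from Lyz2. Of 29 markers of other cells on the array, only the mesothelial markers Upk3b (-0.49, limma adjusted p = 0.0122) and Wt1 (-0.42, limma adjusted p = 0.0199) were called, both lower with siGABP. Each marker was read on its brightest probe, and other probes were not counted. A dimmer Upk3b probe, 520136, lay below the median and differed by 0.04 with siGABP. The list of 8 mesothelial and fibroblast genes summed to 4277 to 5187 on the siCtrl, 4187 to 4764 on the siMLL and 4492 to 4503 on the siGABP arrays, with Krt19 below the median. Most of that sum came from Dcn, which read 2305.3 to 3127.2, near the range of Adgre1, and Col1a1 read 475.4 to 600.1. The marker lists of neutrophils, B cells, T and natural killer cells, and mast cells and eosinophils held 0 calls for siGABP or KLA, and of their genes S100a8 was read at 688.3 to 919.5. The neutrophil list shares Elane with the GABP target list. The part of these cells in the Gabpa and Gabpb1 differences was not tested, and in such bulk RNA fewer cells of a type and less RNA per cell cannot be told apart.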

How the data were processed

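RNA from 8 arrays was compared. Per the labels and the submitters' processing notes, the authors read them with BeadStudio 1.5.1.3 and deposited intensity values on a linear scale. The sorted values of the 8 arrays were identical (largest difference 0), as quantile normalization leaves them. They ranged from 68.5 to 62999, and no background had been subtracted. A further deposited table holds 16 columns of signals and detection values whose names match no label, and these were not used.

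Deposited intensities were background-corrected with normexp (offset 50), quantile-normalized and taken to log2, and all probes were kept. Residual background and the offset shrink differences of dim probes. The platform annotation names 1 gene for 20917 of the 23978 probes, several for 1 and none for 3060. limma 3.58.1 in R 4.3.3 fitted siRNA and KLA as additive terms (4 residual degrees of freedom), or a mean per group for differences of differences (2 residual degrees of freedom), two-sided, with Benjamini-Hochberg adjustment over all probes. Its moderated tests drew the spread of each probe toward that of all probes. The prior degrees of freedom were 9.89 in the additive fit and 7.45 in the fit of group means. Probe pairs of a gene were tested on the difference of their log2 values. All fits were tested on simulated data, in which those for differences of differences called none of the planted changes. Of planted changes of 0.5 on the log2 scale, 29.3% were called for the siGABP effect and 53.8% for the siMLL effect. For siGABP minus siMLL 56.7% were called, and for KLA 73.1%. Of planted changes of 1, these fits called 95% to 98.5%. A missing siGABP call therefore says little about differences near 0.5 or below. Alternatives were no background correction, an offset of 16, the 11989 probes above the median only, 1 probe a gene, a variance trend, reference gene scaling, a mean per group and leaving out each array.

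Every probe of Gabpa, Gabpb1 and Gabpb2 was named, with up to 4 genes a list by smallest siGABP p, the neighbour Atp5j and the 5 genes of most similar pattern. A list gene was represented by its brightest probe. The members and lists were chosen with earlier results of these data known. The number of arrays limits the precision, no batch is given in the sources used here, and the median SD of a probe over the siMLL untreated triplicate was 0.0822 on the log2 scale. Replicates of that group correlated at 0.9946 to 0.9955. Promoter sequences are RefSeq's for GRCm38.p6, and probe positions were not given in the sources used here.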

Additional observations from a re-analysis of the deposited data

How the results depend on the processing

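The siGABP, siGABP minus siMLL and KLA calls of Gabpa 2360017 and Gabpb1 730021 held under every alternative and without each array. Their siGABP effects ranged from -1.32 to -0.84 and from 0.89 to 1.07 over the alternatives, and from -1.18 to -0.87 and from 0.91 to 1.02 without each array in turn. Gabpa 4850279 was called for siGABP without background correction (-0.30), above the median only or with a variance trend (-0.38 each) and with reference scaling (-0.40), and it ranged from -0.48 to -0.28 without each array. Gabpb1 6900037 was not called for siGABP with an offset of 16 (1.07), and ranged from 0.62 to 1.03 without each array, losing its call without siCtrl KLA or siGABP KLA. Without each array, the siGABP effect of Gabpa 4780301 ranged from -0.17 to 0.0787 and the KLA response of 4850279 from -0.0372 to 0.11. With reference scaling, the KLA response of 4780301 was called (0.27), those of Gabpb2 7050735 and 6130450 turned to 0.0443 and 0.0615, the siMLL effect of 7050735 to -0.0089, the siGABP effect on the KLA response of 730021 to 0.0171 (0.0404 without background correction) and the siMLL effect on the KLA response of 7050735 to 0.0011. With a mean per group the siMLL effect of 4850279 was 0.0246, and the siGABP minus siMLL calls of 4850279 (-0.41) and 6900037 (0.55) were lost, as they were with an offset of 16 (-0.53 and 0.73). Without each array, siMLL effects of 4850279 ranged from -0.0783 to 0.0325 and of 6130450 from -0.0662 to 0.0329, and siMLL effects on the KLA response of 7050735 from -0.0766 to 0.0428 and of 6130450 from -0.12 to 0.0123. The siGABP pair difference of the Gabpb1 probes ranged from -0.0767 to 0.36 without each array and was -0.0013 with an offset of 16, and the KLA pair difference of the Gabpb2 probes ranged from -0.0685 to 0.0297.

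Counts of called probes depended on the setting more than the subunit probes did. For siGABP they were 1214 without background correction, 35 with an offset of 16, 1220 above the median, 1143 with a trend, and 91 to 755 without each array (452, 154 and 91 without siCtrl untreated, siCtrl KLA and siGABP KLA). For siMLL they were 691, 19, 650 and 674 in the same order, 609 with 1 probe a gene, 205 with a mean per group and 60 to 291 without each array (206 without siMLL untreated replicate 3, 60, 106 and 144 without siCtrl untreated, siCtrl KLA and siMLL KLA). For siGABP minus siMLL they were 706, 4, 636 and 671, 251 with a mean per group and 63 to 433 without each array (228 and 214 without siMLL untreated replicates 1 and 3, 144, 103 and 63 without siMLL KLA, siGABP untreated and siGABP KLA). The siGABP effect on the KLA response counted 3 without background correction, 0 with an offset of 16 and 8 each with a trend and reference scaling. The siMLL effect on it counted 5 without background correction, 1 each above the median and with 1 probe a gene, 6 with a trend, 15 with reference scaling and 0 to 2 without each array. Probe pairs called for siGABP numbered 174, 0, 79 and 138 and 0 to 69 without each array (0 without siCtrl KLA or siGABP KLA, 28 without siMLL KLA), and for KLA 726 with an offset of 16, 734 above the median and 879 to 1315 without each array. The causes of these shifts were not tested. No paired analysis was possible because only the siMLL untreated arrays carry replicate numbers. Differences of differences could not be fitted without the lone arrays they rest on, and Gabpb2 has no value above the median. Dim probes near 139.5 or below, which include those of Gabpb2, limit what these arrays can show.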
